A study of Homo sapiens with 3 samples.

Results

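Nearly all genes of a DNA replication and deoxynucleotide supply set were above background in stratified iHCE cultures, layers of a human corneal epithelial line immortalized with SV40. Background here means the level of genes typical of other tissues. The set held 33 genes chosen by symbol, and every probe set annotated to exactly 1 of them was kept. This gave 50 probe sets of the 19071 that name 1 gene, and 33 of 11963 genes. Of the 33 genes 32 were above background in all 3 cultures, against 44.8% of all genes. The exception was *ORC1*, the largest subunit of the origin recognition complex. By role the genes fell into 6 of the MCM helicase, 11 of origin licensing and firing, 12 of polymerases and the clamp loader, and 4 of nucleotide synthesis. The group of 11 is called origin licensing for short in places below, and always includes the firing genes.

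All 3 samples belonged to a single group. The cells derive from human corneal epithelium and carry the SV40 large T antigen, and they were used at passages 22 to 23. They were grown on collagen-coated filters in serum-containing medium with insulin, cholera toxin, EGF and DMSO. After 7 days under medium the apical fluid was removed, ascorbic acid was added, and the layers stratified at an air-liquid interface. Total RNA of 3 independent replicate cultures, each with a resistance over 300 Ω · cm2, was hybridized to 1 Affymetrix HG-U133A array per culture. The resistance was 489, 439 and 468 Ω · cm2 in cultures 1, 2 and 3. The model is 1 immortalized line, and the arrays of native corneal epithelium were not analysed here, so no level below is a comparison with tissue.

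Replication starts from origins that are licensed in the G1 phase, when the origin recognition complex, CDC6 and CDT1 load the ring of MCM2 to MCM7 onto DNA. In the S phase cyclin E and CDC7 kinase activity turn this ring into the active helicase together with CDC45 and the GINS complex, and geminin blocks a further loading. Primase and DNA polymerases α and ε then copy the strands with the sliding clamp PCNA, while ribonucleotide reductase, thymidylate synthase and thymidine kinase supply the precursors. Most of these genes are known targets of E2F transcription factors, which the retinoblastoma protein restrains. Large T antigen is known to bind the retinoblastoma protein. In the corneal epithelium cells divide in the basal layer and the limbus, and the cells that move toward the surface leave the cell cycle.

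The values are log2 expression values from RMA, a method that subtracts background, brings the arrays to a common distribution and reduces the probes aimed at a transcript to 1 value. A probe set counted as above background if, on every array, its value passed the 95th percentile of 57 measured genes typical of retina, liver, muscle and further tissues. These thresholds were 7.13, 7.04 and 7.12 in cultures 1, 2 and 3. Probe sets differ in affinity, so a higher value of 1 gene than of another is not a higher amount of RNA. With bulk RNA a smaller share of dividing cells and less RNA per dividing cell cannot be told apart. All 5 epithelial markers (*KRT8*, *KRT18*, *KRT19*, *EPCAM* and *CDH1*) were above background, between 10.24 and 12.58. None of the corneal markers *KRT3*, *KRT12* and *PAX6* was above background, nor were the keratin genes *KRT5* and *KRT14*, and all 5 lay between 4.86 and 6.83. The study ties *KRT5* and *KRT14* to the undifferentiated state of stratified epithelia. None of the 11 measured markers of keratocytes, immune cells, endothelium and melanocytes was above background either.

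A sequence feature outside the selection rule was the E2F type motif in the promoters. In RefSeq windows of the 250 bases before each transcript start (GRCh38.p14), the letters TTTCCCGC, TTTCGCGC, TTTGCCGC and TTTGGCGC were searched on both strands. Of the 33 genes 30 had a window and 13 of these, or 43.3%, held a motif in at least 1 window. Among the 9563 genes of the array with a window the share was 5.18%, and over all 35116 windows 2.79% held a motif. By group the motif was found in 3 of 4 genes of the MCM helicase, 4 of 10 of origin licensing, 5 of 12 of polymerase and clamp loader, and 1 of 4 of nucleotide synthesis. In lists of other genes of the same pathways, 6 of 31 replication genes with a window, or 19.4%, held a motif. Of the other nucleotide metabolism genes with a window 3 of 26 did, or 11.5%. A match is a run of letters and not a shown binding site. The stretches below come from the members of each group with the highest level among those with a motif, and show how it lies before the start. They are written 5′ to 3′ on the strand of the gene, with the motif in capitals.
*MCM6*, chr2:135876502-135876615, minus strand: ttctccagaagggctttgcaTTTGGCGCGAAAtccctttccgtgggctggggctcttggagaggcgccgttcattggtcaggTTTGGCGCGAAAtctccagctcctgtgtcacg
*MCM7*, chr7:100101398-100101416, minus strand: gggggcgacgTTTCGCGCc
*GINS2*, chr16:85688958-85689005, minus strand: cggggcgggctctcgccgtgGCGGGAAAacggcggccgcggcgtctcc
*PCNA*, chr20:5126654-5126701, minus strand: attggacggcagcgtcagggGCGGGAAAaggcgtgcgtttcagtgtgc
*RFC3*, chr13:33818074-33818121, plus strand: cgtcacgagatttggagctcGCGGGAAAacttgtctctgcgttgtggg
*TYMS*, chr18:657604-657631, plus strand: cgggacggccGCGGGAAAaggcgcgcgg
In *MCM6* a match on each strand overlapped in a run of 12 bases, and this run occurred 2 times in the window. The matches of *GINS2*, *PCNA*, *RFC3* and *TYMS* were the same 8 letters, and began 31, 59, 55 and 39 bases before the start. The match of *MCM7* in the stretch began 9 bases before the start, and another one, not shown, 187 bases before it. The stretches of *MCM7* and *TYMS* lie inside the annotated genes *AP4M1* and *TYMSOS* and are therefore kept short.

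All 6 MCM genes were above background on every array, with 10 of their 11 probe sets, against 36.2% of all probe sets. Their brightest probe sets lay from 8.80 to 10.88 with a median of 10.18, against 6.98 over all genes. *MCM2* read 10.75, 10.95 and 10.95 in cultures 1, 2 and 3 (10.88 ± 0.12, mean ± SD, n = 3). *MCM3* read 8.72, 8.86 and 8.83, and the brightest probe set of *MCM4* 9.35, 9.48 and 9.37. In these 3 subunits culture 1 was the lowest, with a difference from the mean of the others of -0.20 in *MCM2*, -0.12 in *MCM3* and -0.079 in *MCM4*. *MCM5* read 10.25, 9.90 and 10.08 (10.08 ± 0.18). *MCM6* read 10.65, 10.22 and 10.36 (10.41 ± 0.21). *MCM7* read 10.57, 10.08 and 10.22 (10.29 ± 0.25). For these other 3 subunits culture 1 was the highest and culture 2 the lowest, and the second probe sets of *MCM5* and *MCM7* had the same order of extremes. The products form 1 ring with a single copy of each. Culture 1 was the highest for 3 of the 6 transcripts, against 40.2% of all genes above background, and the lowest for 3, against 39.4%. The counts are thus near those of genes at large. Over all probe sets above background the median absolute difference of culture 1 from the mean of the others was 0.19. Each culture has 1 array, so the order of the cultures has no replicate within a culture and was not tested.

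Of the 11 genes of origin licensing and firing, 10 were above background. Over all 11 the median was 8.51 and the range from 6.91 to 10.38. *ORC1* read 6.58, 6.92 and 7.24 (6.91 ± 0.33, SD, n = 3) and exceeded the threshold in culture 3 only. *ORC6*, the smallest subunit of the same complex, read 8.39, 8.15 and 8.06 and was above background on all arrays. The loading factor *CDC6* was the member closest above the threshold. It read 7.17, 7.30 and 7.84 at its brighter probe set, 0.34 over the mean threshold (limma, one-sided, adjusted p = 0.046 over all probe sets), and culture 1 exceeded its threshold by the smallest margin. Its other probe set read 6.64, 7.46 and 7.55 and exceeded the threshold on 2 arrays. *CDT1*, which loads the MCM ring with CDC6, read 8.05, 8.29 and 8.27 (8.20 ± 0.13). *GMNN*, which encodes the CDT1 inhibitor geminin, had the highest value of this group with 10.67, 10.22 and 10.25 (10.38 ± 0.25). Its culture 1 stood above both others, whereas in *CDT1* culture 1 stood below both.

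The helicase activators were well above background. *CDC45* read 9.56, 9.61 and 10.11 (9.76 ± 0.31). The GINS subunit genes *GINS1* and *GINS2* read 9.34, 9.46 and 9.75 and 9.49, 9.81 and 10.11. In all 3 of these genes culture 3 was the highest and culture 1 the lowest. The kinase gene *CDC7*, whose product phosphorylates the MCM ring, was among the steadiest members with 8.45, 8.55 and 8.53 (8.51 ± 0.053). *CCNE1* read 8.40, 8.33 and 8.56, and the brighter probe set of *CCNE2* 8.61, 8.32 and 8.83. Both encode E cyclins, which activate CDK2 at the entry into S phase, and both were highest in culture 3 and lowest in culture 2. Another probe set of *CCNE2* read 5.42, 5.42 and 6.09 and was not above background on any array.

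**Figure D1:**
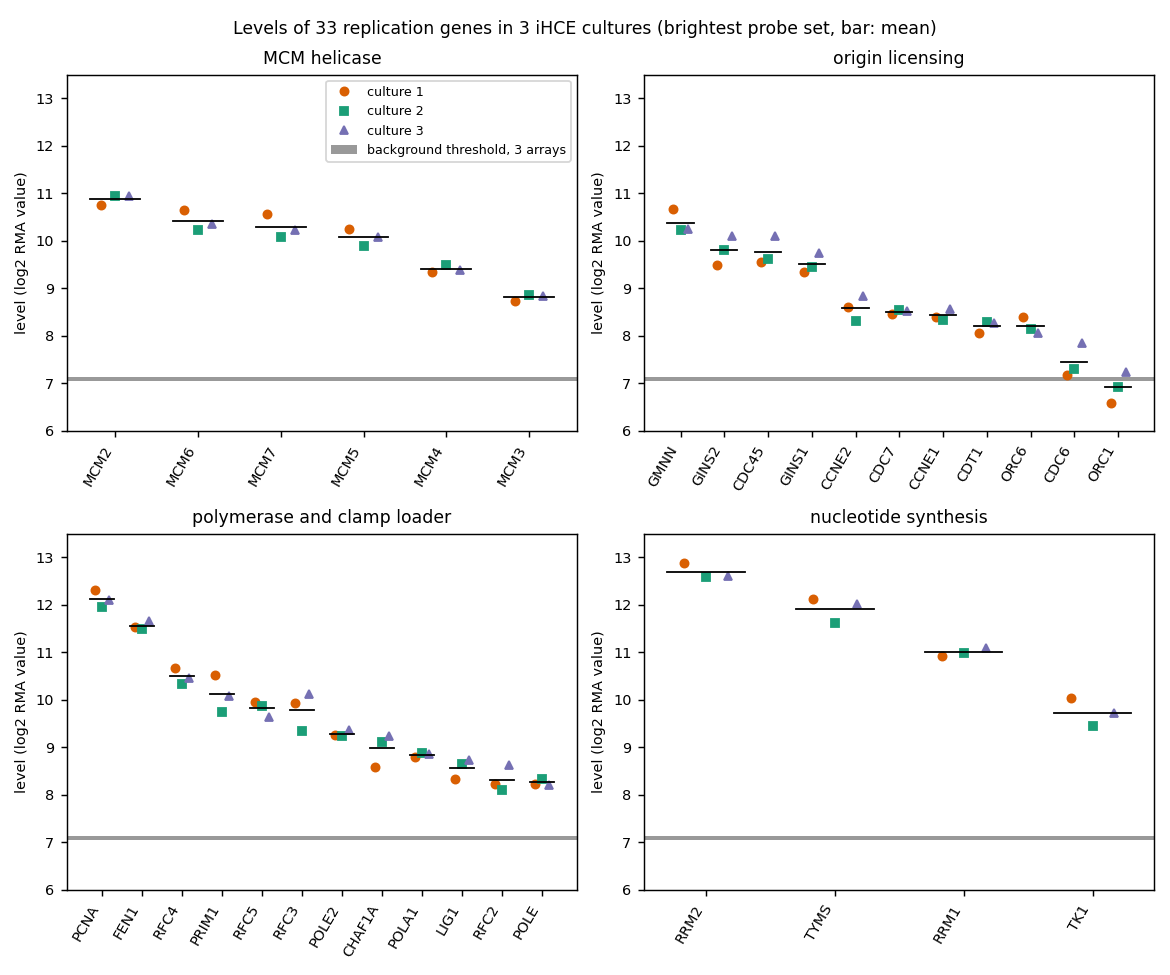
Level of each of the 33 genes at its brightest probe set (vertical axis, log2 RMA value) in iHCE cultures 1, 2 and 3 (points), with the mean of the cultures as a bar, in 4 panels by role. The grey band spans the background thresholds of the 3 arrays, and only *ORC1* has a mean below it while *CDC6* lies just above.

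All 12 genes of polymerases, clamp loader and strand processing were above background at their brightest probe set, which ranged from 8.26 to 12.13 with a median of 9.54. *PCNA*, the sliding clamp, read 12.31, 11.96 and 12.11 (12.13 ± 0.18, SD, n = 3). *RFC4* read 10.67, 10.34 and 10.47, *RFC5* 9.95, 9.87 and 9.65, and *RFC3* 9.93, 9.34 and 10.12. *RFC2* read 8.24, 8.09 and 8.62. These RFC genes encode the small subunits of the loader that opens the clamp, and their cultures did not follow a common order. *RFC2* and *RFC3* were highest in culture 3, *RFC4* and *RFC5* in culture 1. *RFC3* had the largest SD of all 33 genes, 0.41, with culture 3 1.72 times culture 2 on the linear scale.

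The genes of DNA synthesis itself ranged from the steadiest to nearly the most variable of the set. *POLA1*, the catalytic subunit of DNA polymerase α, read 8.79, 8.87 and 8.86, and its SD of 0.043 was the smallest of the 33. *POLE*, the catalytic subunit of DNA polymerase ε, read 8.23, 8.34 and 8.21, and its accessory subunit gene *POLE2* 9.26, 9.23 and 9.37. Both kept within 0.15 log2 units over the cultures. *PRIM1*, the catalytic primase subunit that works in a complex with POLA1, read 10.53, 9.75 and 10.07 (10.12 ± 0.39). Culture 1 was thus 1.71 times culture 2 for *PRIM1*, while the cultures differed by at most 1.06 times for *POLA1*. *FEN1*, the nuclease that trims Okazaki fragments, read 11.54, 11.49 and 11.66, and *LIG1*, the ligase that joins them, 8.34, 8.64 and 8.72. *CHAF1A*, the large subunit of chromatin assembly factor 1, read 8.59, 9.11 and 9.24 (8.98 ± 0.34). Culture 1 was the lowest for *LIG1* and *CHAF1A*, and at all 3 probe sets of *CHAF1A*.

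All 4 genes of nucleotide synthesis were above background, at 9.73 to 12.69 with a median of 11.46. *RRM2*, the regulated small subunit of ribonucleotide reductase, read 12.88, 12.58 and 12.61 (12.69 ± 0.17, SD, n = 3). *RRM1*, the large subunit of the same enzyme, read 10.92, 10.98 and 11.09 (11.00 ± 0.090). *TYMS*, which makes thymidylate from deoxyuridylate, read 12.11, 11.62 and 12.01 (11.91 ± 0.26). *TK1*, the salvage kinase of thymidine, read 10.03, 9.45 and 9.71 (9.73 ± 0.29). *RRM2*, *TYMS* and *TK1* were highest in culture 1 and lowest in culture 2. *RRM1* differed, being lowest in culture 1 at both of its probe sets.

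For 13 of the 33 genes several probe sets allowed a comparison within a gene. In 7 of the 13 the dimmest probe set was not above background, against 71.9% of the 2491 genes above background with several probe sets. Of the 10 member probe sets that were not above background, that of *ORC1* was its only one, and the other 9 belonged to genes whose brightest probe set was. *TYMS* read 6.06 ± 0.072 at its dimmer probe set, *RFC3* 6.34 ± 0.48 and *MCM4* 6.06 ± 0.33 at its dimmest (SD, n = 3). In all, 40 of the 50 probe sets were above background.

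**Figure D2:**
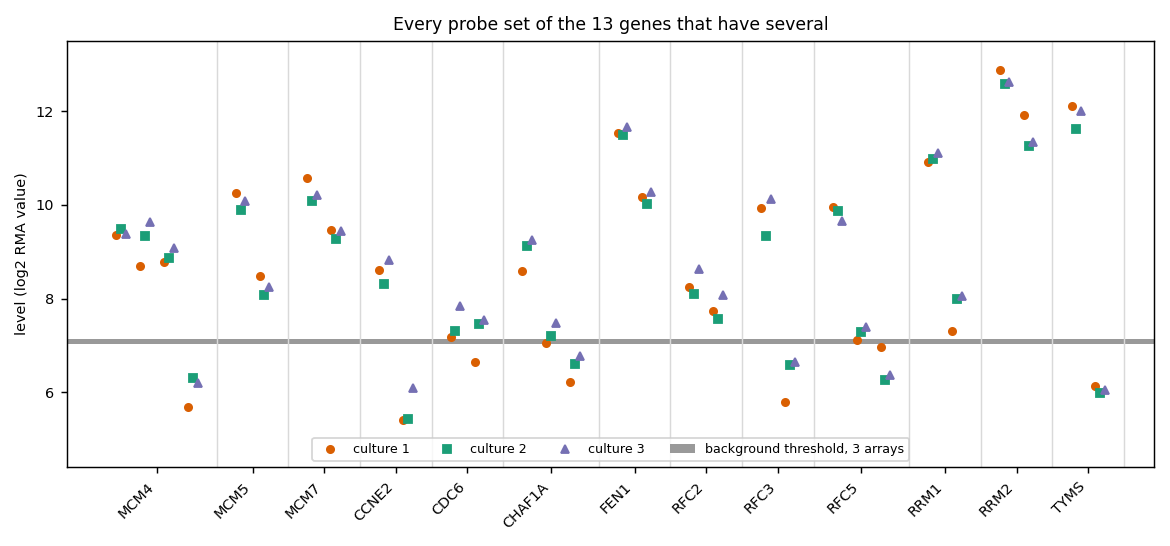
Level (vertical axis, log2 RMA value) of every probe set of the 13 genes with more than 1, in iHCE cultures 1, 2 and 3 (points), with the probe sets of a gene side by side from the brightest to the dimmest. The grey band spans the background thresholds, and 9 of these probe sets are not above it on every array, while each gene has at least 1 that is.

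Probe sets of the same gene could also differ in how the cultures deviated. Culture 1 minus the mean of the others was 0.20 at the bright probe set of *RFC3* and -0.83 at its dim one, which was not above background. The same difference was -0.079, -0.78 and -0.19 at the 3 probe sets of *MCM4* above background. It was -0.12 at the bright probe set of *RRM1* and -0.72 at the dimmer one, both above background. In other genes the dimmer probe set had the higher deviation. For *RRM2* it was 0.285 at the brighter and 0.61 at the dimmer probe set, both above background. For *RFC5* it was 0.19 at the brightest and 0.66 at the dimmest, which was not above background. The dimmest probe set had the lower deviation of culture 1 in 7 of the 13 genes, against 54.3% of the 2491 genes. The direction of culture 1 was the same at every probe set of 9 of the 13, against 45.7% of the 2491, and differed between the probe sets of *CCNE2*, *FEN1*, *RFC3* and *RFC5*. For control probe sets at both ends of a transcript, the 3′ minus 5′ difference of *GAPDH* was 1.64, 1.34 and 1.28 in cultures 1, 2 and 3, and that of *ACTB* lay between 2.99 in culture 1 and 3.25 in culture 2. The array's probe sets for poly-A control RNA had medians of 5.34, 6.59 and 6.63, each under the background threshold of its array, and 24 of 27 were lowest in culture 1. The study's methods do not say whether such RNA was added. The part of these technical differences in the culture deviations of the members was not tested.

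The spread of the members between the cultures lay above that of all probe sets at the median. Over the 40 member probe sets above background the median SD was 0.19, against 0.15 over all 6910 such probe sets, and 27 of the 40 exceeded that value. The largest range was 0.94 log2 units, at a probe set of *MCM4*, and 13 of the 40 had a range of at least 0.5 log2 units, against 17.6% of all 6910. By group the median SD was 0.17 for the MCM helicase, 0.23 for origin licensing, 0.17 for polymerase and clamp loader, and 0.27 for nucleotide synthesis. With only the brightest probe set of each gene, *ORC1* included, these medians were 0.15, 0.25, 0.17 and 0.21. The order of origin licensing and nucleotide synthesis thus depended on the probe sets counted. At the brightest probe set *RFC3*, *PRIM1*, *CDC6*, *CHAF1A* and *ORC1* had the largest SDs, from 0.33 to 0.41. *POLA1*, *CDC7*, *POLE*, *MCM4* and *MCM3* had the smallest, from 0.043 to 0.072. Without culture 1 the median SD of the 40, then over 2 arrays, was 0.11, against 0.086 over all 6910.

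**Figure D3:**
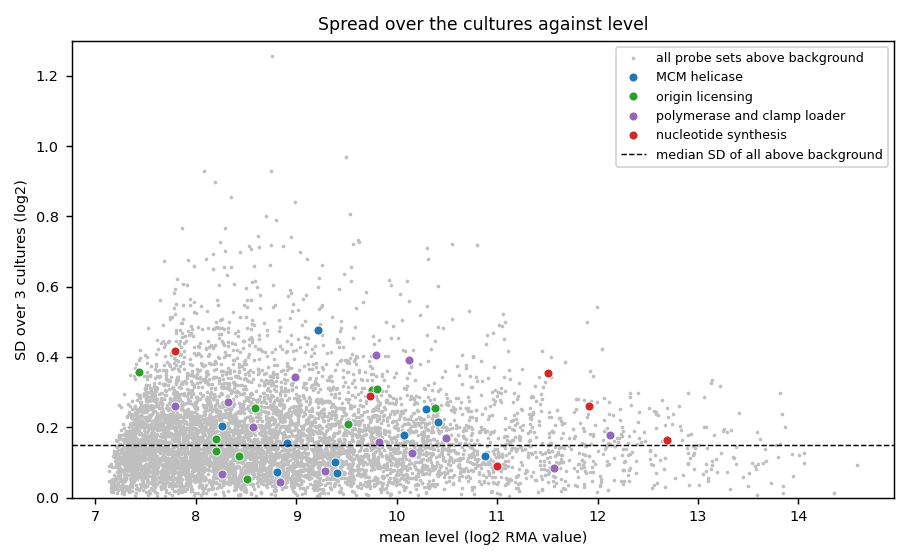
SD over the 3 iHCE cultures (vertical axis, log2) against the mean level (horizontal axis, log2 RMA value) for each of the 40 member probe sets above background (coloured by role) and for all 6910 probe sets above background (grey). The dashed line marks the median SD of all of them (0.15), which 27 of the 40 member probe sets exceed.

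The order of the cultures differed between the groups of genes. Of the 10 genes of origin licensing and firing above background 6 were highest in culture 3, against 32.0% of all genes above background. These were the loading factor gene *CDC6* and the firing genes *CDC45*, *GINS1*, *GINS2*, *CCNE1* and *CCNE2*. *CDT1* and *CDC7* were highest in culture 2, and *ORC6* and *GMNN* in culture 1. Lowest in culture 1 were 6 of the 10, against 39.4%. The 4 that were both highest in culture 3 and lowest in culture 1 were *CDC6*, *CDC45*, *GINS1* and *GINS2*. *ORC1*, not above background, had the same order. Of the 4 nucleotide genes 3 were highest in culture 1, against 40.2% of all genes above background. Over the 32 genes above background culture 2 was the lowest in 16, against 33.9% of all genes above background. Culture 3 exceeded culture 2 in 23 of the 32, against 54.5%, and the median of this difference was 0.14, against 0.021 over all genes above background. This was not particular to the members. Among the other measured genes of the same pathways, above background or not, culture 3 exceeded culture 2 in 26 of 36 replication genes and 19 of 25 nucleotide genes. The medians of the difference there were 0.12 and 0.093. The median deviation of culture 1 from the mean of the others was -0.16 for licensing and firing genes and 0.29 for nucleotide genes. Over all genes above background it was 0.0020. Genes of a group are not independent of each other, and each culture is 1 array, so these counts describe the 3 cultures and test nothing.

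**Figure D4:**
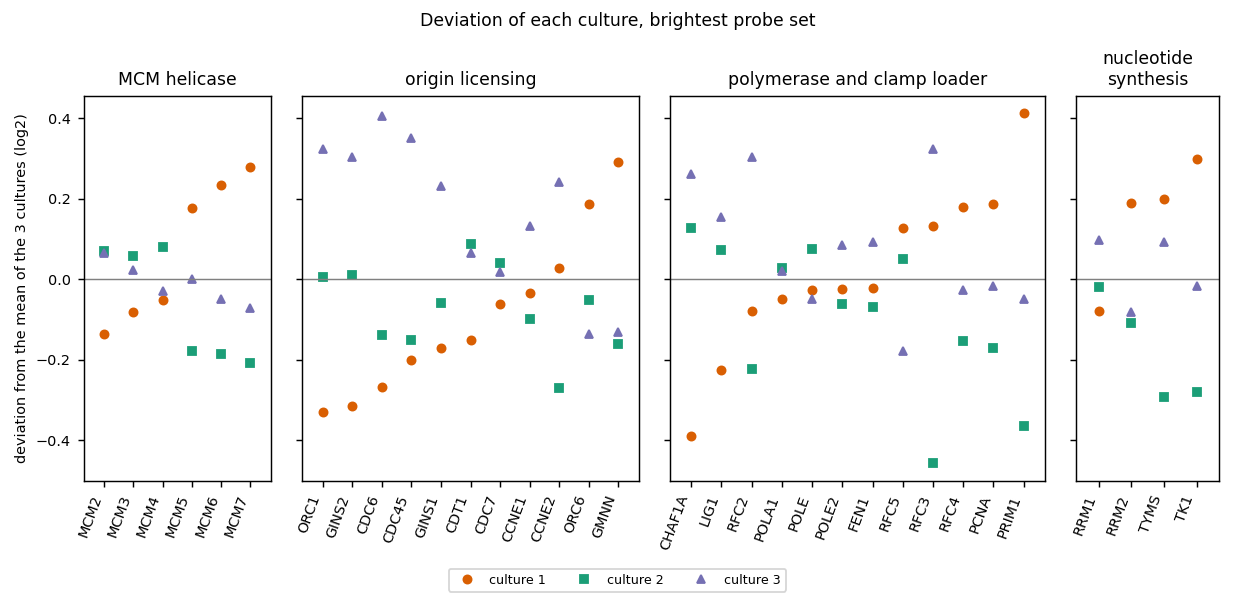
Deviation of each iHCE culture from the mean of the 3 (vertical axis, log2) at the brightest probe set of each gene, in panels by role and with genes ordered by the deviation of culture 1. Culture 1 is highest for *MCM5*, *MCM6* and *MCM7* and lowest for *MCM2*, *MCM3* and *MCM4*, and culture 3 is highest for *CDC6*, *CDC45*, *GINS1* and *GINS2*.

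Further genes of the same pathways were also mostly above background, with more exceptions. Whether they shared the higher median spread of the members depended on the probe sets counted. Of 36 other measured replication genes 30 were above background, with a median level of 8.52. The median SD of their 34 probe sets above background was 0.13, against 0.19 for the members and 0.15 over all probe sets above background. At the brightest probe set of each gene, above background or not, it was 0.16, against 0.18 for the members and 0.14 over all genes. The highest values were those of the topoisomerase genes *TOP2A* (11.15 ± 0.16, SD, n = 3) and *TOP1* (10.69 ± 0.17), and of *RPA1* (10.32 ± 0.17), a subunit of the protein that coats single-stranded DNA. The 6 exceptions were *ORC2*, *PRIM2*, *CLSPN*, *MCM9*, *GINS4* and *WDHD1*. *ORC2*, another subunit of the origin recognition complex, read 6.27, 6.95 and 7.07, below the threshold on every array. *PRIM2*, the large primase subunit and partner of PRIM1, read 5.46 in each culture, and *GINS4*, a partner of GINS1 and GINS2, read 6.42, 7.18 and 7.61. Each of these 3 genes has 1 probe set that names it alone, so a value under the threshold cannot be checked against another. *ORC3*, *ORC4* and *ORC5*, the remaining measured subunits of the complex, were above background at 8.67, 9.59 and 8.05.

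Of 25 other measured genes of nucleotide metabolism 21 were above background, with a median of 9.09. The median SD of their 29 probe sets above background was 0.13, and that at the brightest probe set of each of the 25 genes was 0.16. The highest were the purine synthesis genes *ADSL* (11.52 ± 0.13, SD, n = 3) and *IMPDH2* (11.45 ± 0.15), and *DUT* (11.33 ± 0.15), whose product keeps uracil out of DNA. The exceptions were *DCK*, *DHODH*, *PPAT* and *SHMT1*. *DCK*, the salvage kinase of deoxycytidine, read 7.05, 7.16 and 7.59 and fell short of the threshold in culture 1 only. *DHODH*, an enzyme of pyrimidine synthesis, read 6.69 ± 0.19, and *PPAT*, which catalyses the first committed step of purine synthesis, 7.06 ± 0.16. *SHMT1*, a cytosolic enzyme of one-carbon metabolism, read 4.63 ± 0.19.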

How the data were processed

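RNA of 3 iHCE cultures was measured on 1 HG-U133A array each. Per the labels, the authors used RMA under R 2.8.0, and deposited log2 values for 22283 probe sets. RMA equalizes the arrays and compresses low values. The study's methods describe an RMA run that also held corneal tissue arrays and mapped the probes to Entrez genes with a custom definition. The deposited table holds the standard probe sets of the array, so it may come from a different run. Of the probe sets 19071 name 1 gene, 1043 several and 2169 none in the platform annotation used. Symbols were updated by Entrez number through the RefSeq table of GRCh38.p14. A gene was read at its probe set with the highest mean. The background panel listed 64 genes, of which 57 were measured. With no second group, no difference between groups could be tested. A one-sided test of the mean over the threshold used limma 3.58.1 in R 4.3.3 with Benjamini-Hochberg adjustment over all probe sets, and was tested on simulated data. Other steps used Python 3.11.15 with pandas 2.3.3. The number of arrays limits the precision, an array gives no counting depth, and the SD covers culture and technical variation together.

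The members and lists were chosen with earlier results of these data known. All 33 members are named, together with the 3 highest and all genes not above background of the lists of other pathway genes, and the other origin recognition complex genes, which were added after their values were seen. Motif stretches were to be the 2 brightest genes with a motif per group. That of *GMNN* lies past another start of the gene and is not printed, and nucleotide synthesis had 1 such gene. *MCM4*, *MCM5* and *CCNE2* had no window in the table used. Alternatives were other thresholds, no filter, no _x_at or _s_at probe sets, quantile normalization, the mean over probe sets, the limma call, and leaving out each culture.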

Additional observations from a re-analysis of the deposited data

How the results depend on the processing

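Of the 33 genes 31 kept their call under those of the 10 alternatives in which they could be read. The exceptions were *CDC6* and *CCNE2*. *CDC6* was not above background with the highest panel value (its mean lay at -0.043 from the threshold), with the panel median plus 3 scaled MADs (-0.068), without _x_at and _s_at probe sets, or with the mean over probe sets, which also lost *CCNE2*. *ORC1* was above background under none of them, but its mean turned to lie above the mean threshold with the 90th percentile (0.14) and without _x_at and _s_at probe sets (0.076), since its only probe set kept its value and the threshold fell. Leaving out those probe sets left 22 genes to read, of which 20 were above background, and 26 probe sets, of which 21 were, so the smaller counts come mostly from fewer probe sets. Otherwise the count of genes ran from 30 to 32 and that of probe sets from 37 to 43 of 50. Without replicate 1, 2 or 3 the count of genes was 32 each time, that of probe sets 40 to 43, and the median SD 0.11 to 0.17, the lowest without replicate 1. The other settings gave a median SD of 0.17 to 0.21. No paired analysis was possible because there is only 1 group. Values near the threshold are limited by the compression of low signals on the array.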
